A study of Mus musculus with 8 samples.

Results

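Cells sorted from pups as trafficked maternal cells were compared between paternal-cell and maternal-cell in-utero transplantation (pIUT and mIUT). The name is that of the study and stands for cells of the mother that passed into her offspring. Both libraries also held counts of Y-linked genes, and the mIUT library held counts of H2-Ea, as given below. The comparison was chosen by the sample labels and used 2 of the 8 samples of the series, 1 pooled library for each kind of transplantation, both from mothers without dendritic cell depletion. Mothers were C57BL/6 (CD11c-DTR) females, in which the promoter of Itgax (CD11c) drives a diphtheria toxin receptor, and fathers were BALB/c males, so that the pups were F1 hybrids. Both mothers' groups were given saline on embryonic day 13. On embryonic day 14 each fetus received 5000000 bone marrow mononuclear cells into the liver, from B6 donors (CD45.1, H2K-b) in mIUT and from BALB/c donors in pIUT. Cells were taken at 1 week of age from whole pups, lymphoid organs included, by magnetic and flow sorting on H2K-b, and cells of several pups were pooled. There was no replicate in either group, so no value below has a replicate check, no p-value was computed, and the difference between 2 pools of the same kind is not known. The uninjected maternal sample (1 library) and the 2 samples of recipient cells sorted from mIUT and pIUT pups are given beside the results where they bear on them.

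Small numbers of maternal cells cross the placenta and persist in the offspring, a state called maternal microchimerism. They can include granulocytes, lymphocytes and their progenitors. Neutrophils fill their granules in order as they mature, and red-cell precursors switch on globin, heme and membrane genes together. T and B cells each carry a receptor joined from V, D and J gene segments, and its most variable stretch, the CDR3, spans the joint and serves as a label of the clone.

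The 2 libraries held 44558283 counts (mIUT) and 39477126 counts (pIUT), and 10016 and 13009 genes reached 10 counts. Of the genes above 10 CPM (counts per 1000000) in every other library of the series, 4.86% were under 1 CPM in the mIUT library and 0.758% in the pIUT library, against a range of 0% to 9.51% over the 8 libraries. Of 4 Y-linked genes, Eif2s3y had 2988 counts in mIUT and 753 in pIUT, and Uty had 1584 and 320. Ddx3y had 0 and 408 counts and Kdm5d was at 0 in both, while all 4 were at 0 in the uninjected maternal library. H2-Ea, a class II gene that B6 mice do not make, had 311 counts in mIUT, 0 in pIUT and 0 in the uninjected library. Itgax had 0 counts in mIUT, 611 in pIUT and 409 in the uninjected library. Xist, the RNA of the inactive X chromosome, had 484, 206 and 2036 counts in the same order. In CPM, the maternal mIUT library was close to the recipient mIUT library for Eif2s3y (77.2 and 72.9) and H2-Ea (8.03 and 11.8), and above it for Uty (40.9 and 13.8). It was below it for Ddx3y (0 and 29.2) and Kdm5d (0 and 1.33). The maternal pIUT library was at 14.9 CPM for Eif2s3y against 28.9 in recipient pIUT cells, and at 6.33 against 5.93 for Uty. For Ddx3y it was at 8.07 against 20.7, and for Kdm5d at 0 against 1.88. H2-Ea was at 0 against 60.4 in the pIUT pair. In the study's cytometry recipient cells were set apart from maternal cells as positive for both H2K-b and H2K-d, a gate that would remove them. For the RNA sort its methods name H2K-b for maternal and H2K-d for recipient cells, without saying whether H2K-d positive cells were removed from the maternal sort. Donor cells of mIUT carry H2K-b without H2K-d and were told apart by CD45.1 in cytometry, a marker not named for the RNA sort. The donors' sex is not given in the sources used here, and the part of donor or recipient cells in the results below was not tested. The part of the genes missing from the mIUT library in calls that rest on 0 counts was not tested either. Without the genes missing from that library alone, 5234 higher and 2836 lower calls were left of those given next.

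Counts were scaled to CPM with TMM factors, and a gene was called higher or lower where it differed by at least 4-fold. Where a library held 0 counts, the fold was taken against 3 counts and is a lower limit. Where it held 1 to 3 counts, the ratio is given with a 95% interval that covers counting error only. Of 15332 genes compared, 5410 (35.3%) were higher and 2836 (18.5%) lower in pIUT. Most calls came from genes near 0 in the other library, which were 4128 of the higher and 1430 of the lower genes. Among the 8428 genes that reached 10 counts in each library, 1052 (12.5%) were higher and 1287 (15.3%) lower, so the excess of higher genes did not extend to them. The median log2 fold was 0.42 over all genes compared and -0.25 over the genes with 10 counts in both. The 20 genes with most counts took 27.1% of the mIUT library and 22.8% of the pIUT library. In bulk samples, fewer cells of a type and less RNA per cell cannot be told apart.

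**Figure D1:**
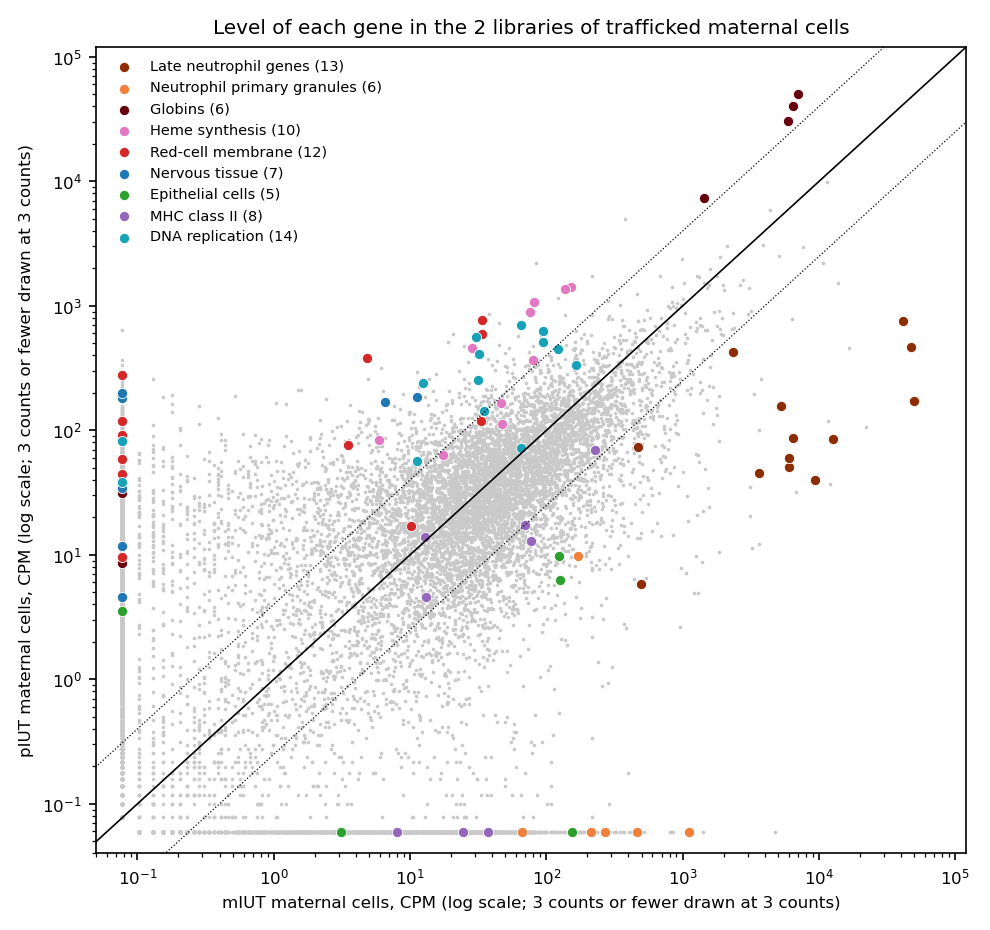
Level of each gene in the mIUT (x axis) and pIUT (y axis) libraries of trafficked maternal cells, in CPM on log scales, with the line of equality and dotted lines at 4-fold. Neutrophil genes lie to the lower right, globin, heme, red-cell membrane and nervous tissue genes to the upper left, and genes at 3 counts or fewer line the axes. Numbers in the legend count the genes compared in each list.

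Neutrophil genes were the lists furthest toward mIUT. All 13 late neutrophil genes were lower in pIUT, with a median log2 fold of -6.38, and together they took 16.6% of the counts of the mIUT library and 0.311% of the pIUT library. Ngp, a cathelicidin-like protein of neutrophil granules (chr9:110248815-110252086, GRCm39), had 1941433 counts in mIUT and 8644 in pIUT, or 50139 and 171 CPM. It was 293-fold lower in pIUT, and the counting interval of its log2 fold ran from -8.23 to -8.17. S100a8 and S100a9, the subunits of calprotectin, were at 41264 and 47003 CPM in mIUT and at 758 and 468 CPM in pIUT. Ltf (lactoferrin) was 149-fold lower, Camp (cathelicidin) 237-fold and Lcn2 (lipocalin 2) 119-fold. The smallest differences in the list were those of Mmp9, a gelatinase of the last granules to form, at 5.54-fold, and Cxcr2, the chemokine receptor of mature neutrophils, at 6.43-fold. Scaled by library size, Mmp9 fell short of the call (log2 fold -1.91) and 12 of 13 genes were lower. The uninjected maternal library was on the side of pIUT, with a summed level of the list of 5865 CPM against 191087 in mIUT and 2427 in pIUT. The level in mIUT was not particular to maternal cells, since recipient cells were at 325148 CPM in mIUT and 54973 CPM in pIUT.

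Genes of the primary granules, which form first, were set further apart. Of 7 genes with an identifier, 6 were compared and all 6 were lower in pIUT, with a median log2 fold of -12.0. Lower limits set against 3 counts made up 5 of these 6 folds, so the median is itself a limit that depends on depth. Elane (neutrophil elastase) had 17758 counts in mIUT and 0 in pIUT, a level at least 7733-fold lower. Prtn3 (proteinase 3) had 10467 and 0 counts, Ctsg (cathepsin G) 8190 and 0, and Ms4a3, a marker of granulocyte and monocyte precursors, 2581 and 0. Mpo (myeloperoxidase) had 42815 and 3 counts, a log2 ratio of -14.19 with an interval from -16.46 to -12.64. Cebpe, the transcription factor of granule maturation, was the only member found above 3 counts in both, with 6652 and 498 counts, and was 17.4-fold lower in pIUT. Gfi1 was at 0 in both. The summed level of the list was 2285 CPM in maternal mIUT and 9.90 CPM in maternal pIUT cells, against 1907 CPM in recipient mIUT and 702 CPM in recipient pIUT cells.

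Other genes with the largest differences in this direction included Stfa1, Stfa2, Stfa3, Stfa2l1, Cstdc5, Cstdc6 and Csta2, a cluster of stefin A protease inhibitors on chromosome 16 whose copies are near-identical, so that reads may have been split between them. Stfa1 had 469552 counts in mIUT and 1882 in pIUT and was 326-fold lower, and Cstdc5 had 851246 and 5333 counts. Olfm4, a glycoprotein of a subset of neutrophils, was 212-fold lower, and Fcnb (ficolin B) had 32963 counts against 0. Of 9 monocyte genes compared, 5 were lower and 1 higher in pIUT (median log2 fold -2.06). Under the other scalings the median fell short of 4-fold (-1.90 to -1.50) and 4 were lower. Lyz2 (lysozyme) was 36.4-fold lower, Ly6c2 was 82.2-fold lower and Ccr2 had 516 counts against 0. Cd14, the lipopolysaccharide coreceptor, went the other way with 13479 and 51196 counts, a 2.91-fold difference short of the call. Fcgr1 had 6 and 293 counts. Hdc (histidine decarboxylase) was 19.5-fold lower in pIUT, while the eosinophil granule genes Prg2 (1 and 1198 counts) and Epx (0 and 311 counts) were higher, and 9 of the 12 mast cell, basophil and eosinophil genes were not compared.

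The genes with the highest level in mIUT among those at 3 counts or fewer in pIUT were led by Fabp2, followed by Rbp2, Mpo, Fcnb, Lgals4, Alpi and Apoc3. Fabp2, the intestinal fatty acid binding protein (chr3:122688721-122693155), had 185244 counts in mIUT, 2 in pIUT and 0 in the uninjected library, a log2 ratio of -16.88 with an interval from -19.93 to -15.03. Rbp2 (cellular retinol binding protein of the intestine) had 54966 counts against 0, Lgals4 (galectin 4) 31700 against 0, Alpi (intestinal alkaline phosphatase) 31088 against 0 and Apoc3 (apolipoprotein C3) 20002 against 0. Pls1 (plastin 1 of microvilli), Ms4a10, Creb3l3, Meltf, Tm6sf2 and Akr1c19 had between 13493 and 18497 counts in mIUT and 0 or 1 in pIUT. Apoa4 had 49721 and 248 counts and was 262-fold lower. The recipient mIUT library held Fabp2 at 20.1 CPM, against 4784 CPM in maternal mIUT cells.

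Epithelial genes were lower in pIUT in 4 of 5 compared and higher in 1, with a median log2 fold of -4.31. Epcam, an adhesion molecule of epithelia, had 5925 counts in mIUT and 0 in pIUT, at least 2580-fold lower. Krt8 and Krt18, the keratin pair of simple epithelia, had 4835 and 4762 counts in mIUT and 318 and 495 in pIUT. Krt10, a keratin of skin, had 0 counts in mIUT and 178 in pIUT. Of 12 hepatocyte genes, 6 were lower and 1 higher (median -1.85). Apoa1, which liver and intestine both make, was 87.9-fold lower, Apob had 2601 counts against 0 and Afp (alpha-fetoprotein) was 11.3-fold lower. Alb (albumin) had 2478 and 1410 counts and stayed within 4-fold. Of 8 imprinted fetal growth genes, 3 were lower and 4 higher. Cdkn1c was 16.9-fold, H19 7.31-fold and Igf2 5.56-fold lower in pIUT, while Dlk1, Peg3, Grb10 and Meg3 were at 1 count or fewer in mIUT and at 88 to 844 counts in pIUT.

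**Figure D2:**
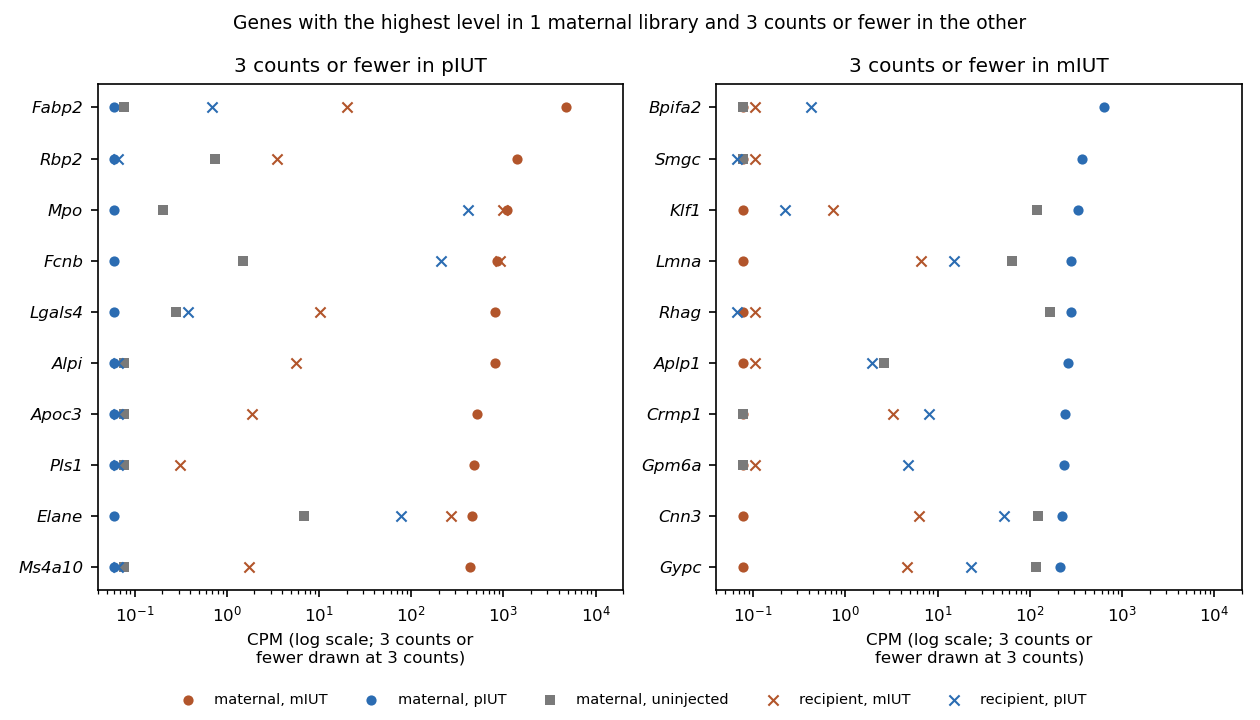
The 10 genes with the highest level in mIUT among those at 3 counts or fewer in pIUT (left) and the 10 in the reverse direction (right), in CPM on a log scale. Filled circles are the maternal mIUT and pIUT libraries, squares the uninjected maternal library and crosses the recipient libraries, and values at 3 counts or fewer are drawn at 3 counts. The uninjected library holds Klf1, Lmna, Rhag, Cnn3 and Gypc at 64.7 CPM or more but Fabp2, Bpifa2 and Smgc at 3 counts or fewer.

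In pIUT the red-cell genes were higher. All 6 globin genes compared were higher (median log2 fold 2.74), and globins took 16.4% of the counts of the pIUT library against 1.81% of the mIUT library and 9.17% of the uninjected maternal library. Hbb-bs, an adult beta globin (chr7:103475730-103482989), had 2523897 counts in pIUT and 273152 in mIUT, 7.07-fold higher, and Hba-a1, an adult alpha globin, was 6.27-fold higher. Hba-a1 and Hba-a2 are near-identical, as are Hbb-bs and Hbb-bt, and the split of reads within each pair is uncertain. The embryonic globins Hba-x and Hbb-y had 1598 and 438 counts in pIUT and 0 in mIUT.

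Of 10 heme synthesis genes, 7 were higher and none lower in pIUT (median log2 fold 3.27, range 1.27 to 4.02). Alas2, the first enzyme of heme synthesis in red cells, had 71098 counts in pIUT and 5857 in mIUT and was 9.29-fold higher. Cpox was 16.2-fold and Fech, which inserts the iron, 11.8-fold higher. Ppox was 2.42-fold higher and did not reach the call. Of 12 red-cell membrane genes, 10 were higher (median 6.63, with 6 of the 12 folds lower limits). Slc4a1 (band 3) had 38584 counts in pIUT and 1311 in mIUT, and Rhag, the Rh-associated glycoprotein, 14098 and 0. Sptb, the red-cell beta spectrin, was at 2970 counts in pIUT and 0 in mIUT.

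Of 8 erythroid transcription factors, 6 were higher and 1 lower in pIUT (median log2 fold 8.77), but over the 3 that reached 10 counts in each library the median was -0.076. Klf1, the activator of adult beta globin, had 16941 counts in pIUT and 0 in mIUT, a level at least 4323-fold higher. Gfi1b had 4279 and 0 counts, and Tal1 2021 and 0. Gata1 had 5932 counts against 1, a log2 ratio of 12.15 with an interval from 9.67 to 17.45. Nfe2, which neutrophils also express, was 5.39-fold lower in pIUT, with 4706 counts against 19435 in mIUT. The mIUT library held 273152 counts of Hbb-bs with no count of Klf1, Gfi1b or Tal1, while the uninjected library held 4673 counts of Klf1, 828 of Gfi1b and 353 of Tal1. Car2, the carbonic anhydrase of red cells, had 112387 counts in pIUT and 3245 in mIUT and was 26.5-fold higher. The 2 of 11 megakaryocyte and platelet genes that could be compared, Pf4 and Gp1ba, were at 439 and 519 counts in pIUT and 0 in mIUT.

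DNA replication genes were also higher in pIUT, 11 of 14 with none lower (median log2 fold 2.88), against 35.3% of all genes. Mcm3, a subunit of the replicative helicase, had 12077 counts in pIUT and 480 in mIUT and was 19.3-fold higher. Rrm1, a subunit of ribonucleotide reductase, was 18.4-fold higher, and Cdc6, which loads the helicase, had 4154 counts against 0. Cdc45 differed by 1.11-fold and Pcna by 2.02-fold. Of 14 mitosis genes compared, 6 were higher and 1 lower (median 1.72). Top2a had 6007 and 133 counts, Bub1 2099 and 0, and Ccnb1 was 3.27-fold higher. The exception was Mki67, the gene of the Ki-67 antigen, with 40 counts in pIUT and 442 in mIUT, 14.4-fold lower.

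All 7 nervous tissue genes compared were higher (median log2 fold 7.25, with 5 of the 7 folds lower limits). Tubb3, the neuronal tubulin, had 9130 counts in pIUT, 0 in mIUT and 0 in the uninjected library. Mbp (myelin basic protein) had 9345 counts in pIUT, 437 in mIUT and 3247 in the uninjected library, and Stmn2, a neuronal tubulin-binding protein, had 8537, 255 and 0. Gfap, the filament of astrocytes, had 1728 counts against 0 in mIUT. Outside the list, Gpm6a, Aplp1 and Crmp1, which neurons express, had 11996, 13076 and 12263 counts against 0. Bpifa2 and Smgc, which are made by salivary glands, had 32392 and 18682 counts in pIUT and 0 in mIUT and in the uninjected library.

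Of 6 skeletal muscle genes compared, 5 were higher in pIUT, among them Acta1 (skeletal actin) with 6299 counts against 15, and Myh3 had 4 counts against 0. Of 6 mesenchymal genes compared, 5 were higher: Pdgfra had 2101 counts against 0 and Sparc was 9.77-fold higher, while Col3a1 differed by 2.05-fold. Of 7 endothelial genes compared, 3 were higher and none lower, near the 35.3% of all genes called higher, and the median of 1.55 turned to -1.06 over the 3 that reached 10 counts in each library. Pecam1 had 1305 counts in mIUT and 819 in pIUT. Of 8 stem and progenitor genes compared, 3 were higher, again near that share, namely Kit (2187 counts against 0), Meis1 (2256 against 0) and Procr (239 against 0), and 3 were lower, namely Spi1, Runx1 and Cd34. Spi1 (PU.1), the myeloid transcription factor, was 12.1-fold lower.

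Of 7 helper T-cell and inflammatory cytokine genes compared, 4 were higher and 2 lower in pIUT, and the other 9 of 16 were at 3 counts or fewer in both. Il1b had 58116 counts in pIUT, 4735 in mIUT and 3648 in the uninjected library and was 9.40-fold higher in pIUT. Tnf had 17342, 2253 and 129 counts and was 5.89-fold higher. Ifng (interferon gamma), in contrast, had 363 counts in pIUT and 1147 in mIUT and was 4.13-fold lower, which fell short of the call under each of the other scalings (log2 fold -1.89 to -1.48) and left 1 lower gene in the list. Of 15 chemokine and receptor genes compared, 7 were higher and 3 lower, near the 35.3% and 18.5% of all genes. Ccl3 was 16.3-fold higher with 36843 counts against 1730, Cxcl2 was 6.86-fold higher and Ccl2 had 1938 counts against 0. Ccl5, a chemokine of T and NK cells, was 5.14-fold lower, and Cxcr5, the follicular homing receptor, had 883 counts in mIUT and 0 in pIUT. Il6, Il10, Il17a and Il13 were at 0 in both. Nfkbiz, an inducible regulator of NF-kappa B targets, had 9107 counts in pIUT and 94 in mIUT.

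Dendritic cell and macrophage genes were scattered in both directions. Of 8 conventional dendritic cell genes compared, 6 were higher and 2 lower in pIUT (median 5.08), but 5 of the 6 rested on genes at 0 in mIUT, and the median was 0.24 over the 2 genes that reached 10 counts in each library. Itgax, Zbtb46 and Xcr1 had 611, 1063 and 75 counts in pIUT and 0 in mIUT, whereas Irf8 was 6.55-fold lower in pIUT and Ccr7 had 258 counts in mIUT and 0 in pIUT. Batf3, Flt3, Clec9a and Cd209a were at 0 in both. Plasmacytoid dendritic cell genes gave 2 higher and 1 lower of 5, and Siglech was at 0 in both. Of 10 tissue macrophage genes compared, 5 were higher (Adgre1, Marco, Clec4f, Mrc1 and Vcam1, each at 0 in mIUT; without genes under 10 counts in either library the median was -2.27) and 3 were lower (C1qa, C1qc and Slc40a1). With library size C1qa and C1qc fell short of the call (log2 fold -1.71 and -1.91), which left 1 lower gene. Slc40a1 (ferroportin, the iron exporter) had 23413 counts in mIUT and 2442 in pIUT.

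B-cell genes were at a summed level of 346 CPM in mIUT and 57.8 CPM in pIUT, against 7880 CPM in uninjected maternal cells. Of 8 compared, 4 were lower and 2 higher in pIUT (median log2 fold -1.93). Cd79a, a signalling subunit of the B-cell receptor, had 4138 counts in mIUT, 441 in pIUT and 96352 in the uninjected library. It was 12.3-fold lower in pIUT, and its partner Cd79b was 5.45-fold lower. Blk, a B-cell kinase, had 756 counts against 0, while Cd72 went the other way with 0 against 344. Pax5, the factor of B-cell identity, was at 0 in both. Of 6 immunoglobulin constant region genes compared, 3 were lower and none higher (median -3.08). Ighm had 13746 counts in mIUT and 6069 in pIUT and Igkc 2925 and 1095, both within 4-fold, whereas Iglc1 had 480 counts against 0. Igha and the IgG genes Ighg2b, Ighg2c and Ighg3 were at 0 in both. Of 7 B-cell precursor genes compared, 3 were lower and 1 higher. Igll1 (lambda 5 of the surrogate light chain) was 9.84-fold lower, Rag2 had 244 counts against 0 and Rag1 had 13 counts against 218. Plasma cell genes gave 2 higher (Sdc1 and Prdm1) and 1 lower (Mzb1) of 4, and Jchain was at 0 in both.

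Of 12 T-cell genes compared, 2 were higher, 3 were lower and 7 lay within 4-fold (median log2 fold -1.14), against 35.3% higher and 18.5% lower over all genes. Cd3e had 2259 counts in mIUT and 1261 in pIUT, Lck 2735 and 1667, and Cd8a 642 and 751. Cd4 had 1708 counts in mIUT and 0 in pIUT, at least 744-fold lower, and Cd3d was 18.8-fold lower. Cd5, Cd6, Cd28 and Bcl11b were at 0 in both libraries and between 1825 and 2443 counts in the uninjected library. The T-cell receptor constant regions Trac, Trbc1 and Trbc2 were 2.62-fold to 3.96-fold lower in pIUT, short of the call, and Trdc was at 0 in both.

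Activation genes fell on both sides. Il2ra, Ctla4 and Icos had 605, 565 and 448 counts in mIUT and 0 in pIUT. Cd69 and Egr2 had 1466 and 880 counts in pIUT and 0 in mIUT, and Nr4a1, an early target of antigen receptor signals that other stimuli also induce, had 6949 counts against 3, a log2 ratio of 10.79 with an interval from 9.24 to 13.07. In all, 3 of 12 T-cell activation genes were higher and 4 lower. Of 11 regulatory T-cell and checkpoint genes compared, 4 were lower and none higher. The lower genes were Il2ra and Ctla4, which also count among the activation genes, Tnfrsf18 (963 and 184 counts) and Lag3 (18 and 1). Within 4-fold were Foxp3 at 59 and 184 counts, Pdcd1 at 847 and 1223, and Cd274 (PD-L1) at 950 and 2969. Of 7 cytotoxic granule genes compared, 4 were lower and none higher (median -2.08). Under the other scalings 3 were lower and the median was -1.93 to -1.52, since Gzmb fell short of the call. Prf1 (perforin) had 1736 counts in mIUT and 0 in pIUT, Gzmb (granzyme B) had 25096 and 7767, and Gzma 6047 and 7000. Of 6 NK cell genes compared, 3 were higher and 1 lower, and Ncr1, Eomes and Klrb1c were at 0 in both.

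Class II genes, which present antigen to CD4 T cells, were at a summed level of 467 CPM in mIUT, 118 CPM in pIUT and 40239 CPM in uninjected maternal cells. Of 8 compared, 5 were lower and none higher (median -2.28), H2-Ea included. With library size the median was -1.72 and 3 were lower, and H2-Ab1 fell short of the call under each of the other scalings. H2-Aa had 2962 counts in mIUT, 659 in pIUT and 164587 in the uninjected library, and Cd74, the invariant chain, had 8739, 3519 and 823944. H2-Eb1 did not differ beyond counting error (498 and 701 counts, log2 fold 0.11, interval -0.06 to 0.28). Ciita, the master regulator of class II, was at 0 in both. Of 12 class I genes, 2 were lower (Psmb8 and H2-Q7) and 2 higher (Tap2 and Nlrc5), and H2-K1, the gene of the sorting antigen, had 20967 and 11264 counts. With library size Psmb8 and H2-Q7 fell short of the call (log2 fold -1.68 and -1.65), and no class I gene was lower.

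Other lists had fewer calls or calls in both directions. Of 10 interferon response genes compared, 4 were lower and 1 higher: Ifit3 had 2206 counts in mIUT and 0 in pIUT, whereas Rsad2 had 293 and 7902. Toll-like receptor genes gave 2 lower (Tlr1 and Tlr7) and none higher of 6, integrins and selectins 4 lower and 4 higher of 11, and antigen receptor signalling 2 lower and 1 higher of 12. The share over all genes was 18.5% lower and 35.3% higher. With DESeq2 size factors or TMM of the 2 libraries 3 integrins and selectins were lower, and with library size 1 was. Of 12 immediate-early genes 2 were higher and none lower, and Fos, Jun, Egr1 and Dusp1 lay within 4-fold. No mitochondrially encoded gene of 12 passed 4-fold (range of log2 fold -1.28 to 0.56). Of 11 genes expressed in most cells 1 did, Actb, which was 4.86-fold lower in pIUT. With library size Actb fell short of the call (log2 fold -1.72) and Polr2a passed it in the other direction (2.17).

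Recipient cells of the same 2 kinds of pups were compared in the same way, and 3185 (18.5%) of 17179 genes were higher and 2328 (13.6%) lower in recipient pIUT. Late neutrophil genes had a median log2 fold of -2.55 there with 12 of 13 lower, and globins of 7.57 with 4 of 5 higher. Primary granule genes, the list furthest apart in maternal cells, had a median of -1.61 in recipient cells with 0 of 7 called. DNA replication had 2.31, with 9 of 14 higher. T-cell genes differed, with a median of 3.18 and 14 of 16 higher in recipient pIUT against 2 of 12 higher in maternal pIUT. Red-cell membrane genes had a median near 0 over 7 genes in recipient cells, 2 of them higher, against 6.63 over 12 in maternal cells. These differences between maternal and recipient cells were not tested.

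**Figure D3:**
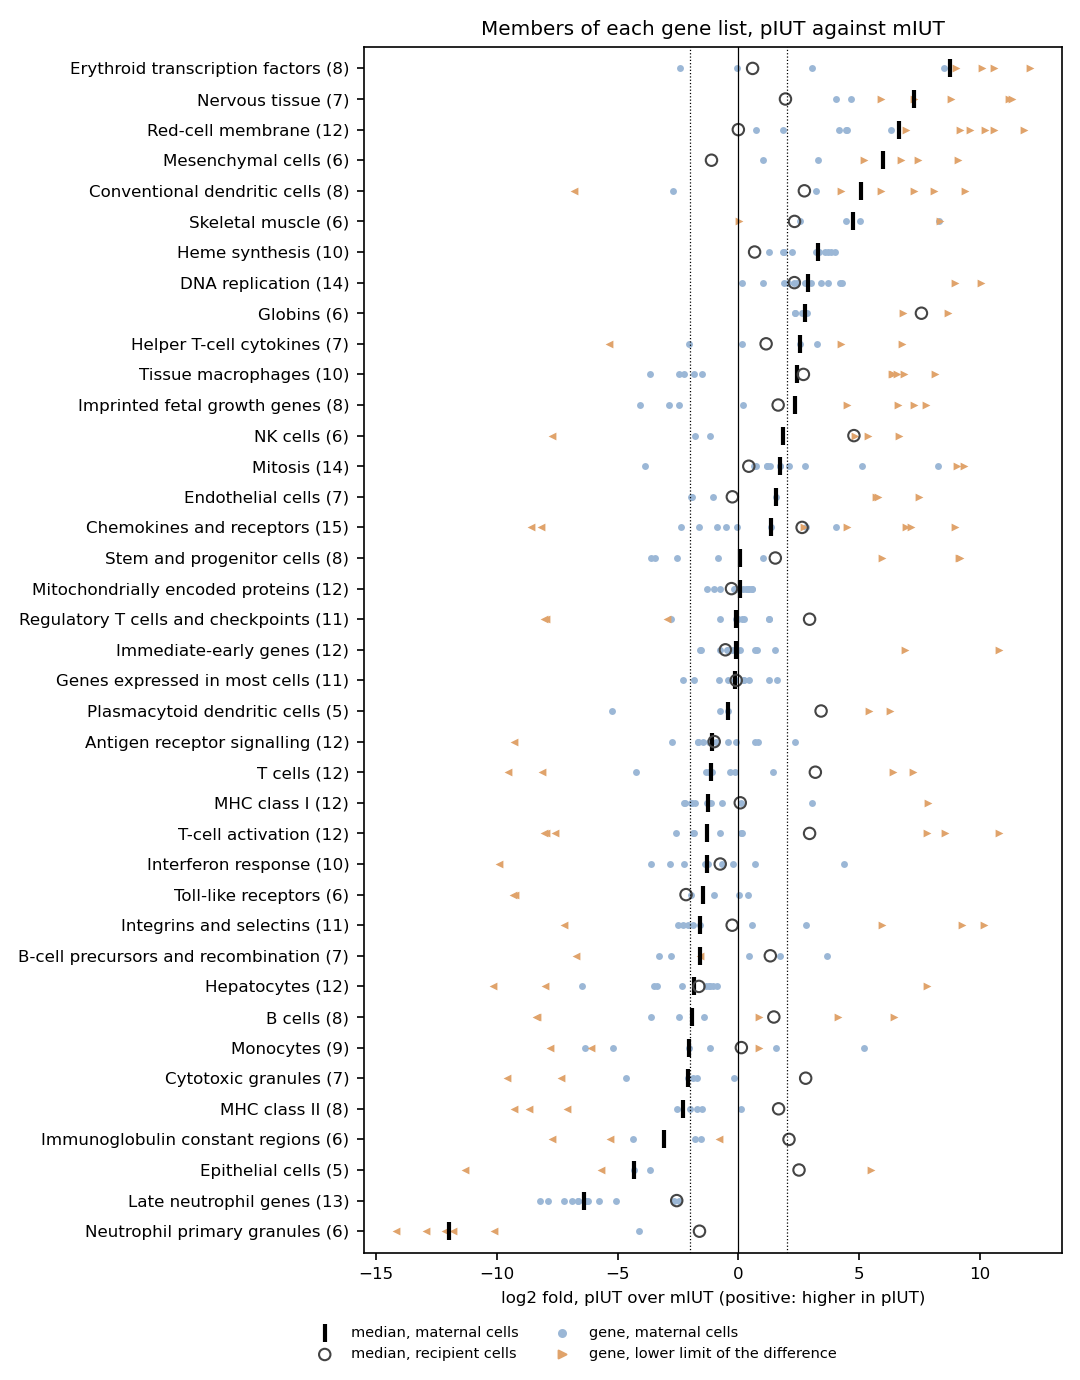
Log2 fold of pIUT over mIUT for each member of the gene lists with at least 5 genes compared, with positive values higher in pIUT. Dots are maternal genes, triangles maternal genes at 3 counts or fewer in 1 library drawn at the lower limit of their difference, bars the maternal medians and open circles the recipient medians, with dotted lines at 4-fold. Neutrophil, epithelial and immunoglobulin lists are furthest to the left and erythroid, nervous tissue and mesenchymal lists furthest to the right.

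Receptor clonotypes assembled from the RNA reads, counted as entries of the deposited lists, numbered 49 in mIUT and 32 in pIUT, with clone counts of 8376 and 3749 reads. As distinct combinations of V, J and CDR3 they numbered 48 and 31. Uninjected maternal cells had 4429 clonotypes, recipient mIUT cells 666 and recipient pIUT cells 5488. Receptor reads per 1000000 gene counts numbered 188 in mIUT, 94.97 in pIUT and 9043 in uninjected maternal cells. At the same clone count of 3749 reads, 43.8 clonotypes were expected in mIUT against 32 in pIUT. The Hill number of order 1, the effective number of clonotypes, was 28.8 in mIUT and 17.9 in pIUT. The 5 largest clonotypes held 32.4% of the clone count in mIUT and 53.8% in pIUT. Reads carry no molecular identifiers, so these counts measure RNA and its amplification as well as cells.

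The CDR3 sequences of the 5 largest clonotypes of each library are shown because they held much of the clone count. Each is printed 5′ to 3′ from the deposited assemblies, with capitals for bases between the end of the V match and the start of the J match. The segments lie on chromosome 6 (kappa and T-cell receptor beta), 12 (heavy chain) and 16 (lambda) of GRCm39, such as Igkv8-21 at chr6:70291879-70292456, Trbv13-1 at chr6:41092941-41093402, Ighv5-6 at chr12:113589126-113589576 and Trbv17 at chr6:41139996-41140490.
mIUT 1, IGKV8-21 with IGKJ2, 847 reads: tgcaagcaatcttataatcttccacgttc
mIUT 2, TRBV13-1 with TRBJ2-5, 498 reads: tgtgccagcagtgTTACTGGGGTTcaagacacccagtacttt
mIUT 3, IGLV1 with IGLJ1, 489 reads: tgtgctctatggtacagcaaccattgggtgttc
mIUT 4, TRBV13-1 with TRBJ1-3, 481 reads: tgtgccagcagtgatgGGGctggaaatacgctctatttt
mIUT 5, TRBV19 with TRBJ2-5, 395 reads: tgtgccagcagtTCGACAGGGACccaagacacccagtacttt
pIUT 1, IGHV5-6 with IGHJ3, 572 reads: tgtgcaagaCATAGGtactgg
pIUT 2, TRBV17 with TRBJ2-1, 492 reads: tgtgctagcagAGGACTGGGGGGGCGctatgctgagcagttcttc
pIUT 3, TRBV13-2 with TRBJ2-3, 352 reads: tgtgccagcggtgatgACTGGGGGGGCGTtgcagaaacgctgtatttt
pIUT 4, IGKV1-135 with IGKJ1, 313 reads: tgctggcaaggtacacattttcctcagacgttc
pIUT 5, IGKV11-125 with IGKJ2, 287 reads: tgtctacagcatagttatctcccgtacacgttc

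The largest clonotype of mIUT, a kappa chain, had a CDR3 of 29 bases, which is not a multiple of 3, and so cannot give a receptor chain. It held 10.1% of the clone count (95% exact binomial interval 9.47% to 10.8%, counting error only). The largest of pIUT was a heavy chain with a CDR3 of 21 bases, the shortest of its library, at 15.3% (14.1% to 16.4%). Clonotypes without a productive CDR3 made up 21.3% of the clone count in mIUT (20.5% to 22.2%) and 7.90% in pIUT (7.05% to 8.81%), or 12 of 49 and 5 of 32 clonotypes. As a share of clonotypes the intervals overlapped (13.3% to 38.9% and 5.28% to 32.8%).

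No clonotype was found in both libraries, by V, J and CDR3 or by CDR3 alone. In mIUT 7 clonotypes and in pIUT 6 were found in at least 1 of the other 6 libraries of the series, and all 13 were light chains. These matches are by V, J and CDR3, and by that rule none of the 12 heavy chain or 22 T-cell receptor clonotypes of mIUT, and none of the 7 and 17 of pIUT, was found elsewhere. By CDR3 alone, the heavy chain clonotype 17 of mIUT matched 6 reads in 1 of the other 6 libraries and the beta chain clonotype 31 of mIUT matched 34 reads in recipient pIUT cells. With so few heavy chain and T-cell receptor matches to any library, the count of 0 shared between mIUT and pIUT says nothing particular about these 2 libraries. The shared light chains had 0 to 2 bases between V and J. The lambda clonotype mIUT 3 was found in all of the other 6 libraries, with 3962 reads in uninjected maternal cells and 30 in recipient mIUT cells, and the kappa clonotype pIUT 4 in 5 of them, with 2044 reads in uninjected maternal cells and 61 in recipient pIUT cells.

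By chain, T-cell receptors made up 45.4% of the clone count in mIUT (44.3% to 46.4%) and 46.8% in pIUT (45.2% to 48.4%), with overlapping intervals. The beta chain was close in both, at 38.9% and 38.5%. Heavy chains held 15.95% in mIUT (15.2% to 16.8%) and 25.4% in pIUT (23.98% to 26.8%), and kappa chains 32.8% (31.8% to 33.8%) and 27.8% (26.4% to 29.3%). The largest clonotype of pIUT gave 572 of its 951 heavy chain reads. As a share of clonotypes, heavy chains were 24.5% in mIUT (13.3% to 38.9%) and 21.9% in pIUT (9.28% to 40.0%). Kappa chains were 26.5% (14.9% to 41.1%) and 25.0% (11.5% to 43.4%), so both pairs of intervals overlapped. Lambda chains held 5.93% in mIUT and were not found in pIUT, where 0 of 3749 reads allows a share of up to 0.0800% for counting error only. All lambda reads of mIUT shared 1 CDR3, and reads of 1 clone are not independent. As a share of clonotypes, 0 of 32 in pIUT allows up to 10.9%. Gamma chains held 0.370% in mIUT and were not found in pIUT, and delta chains were found in neither. Every heavy chain clonotype joined IGHM, the constant region of IgM, 12 in mIUT and 7 in pIUT.

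Segment use differed between the libraries with few clonotypes behind it. TRBV19 held 33.0% of the beta chain reads in mIUT (5 clonotypes, of which 3 have CDR3s that differ from one another by 1 or 2 bases) and TRBV13-1 30.05% (2 clonotypes), and neither was found in pIUT. There TRBV13-2 held 36.9% (2 clonotypes), TRBV17 34.4% (2 clonotypes) and TRBV5 18.5% (3 clonotypes). Among the heavy chains, the number of CDR3 bases assigned to none of V, D and J had a median of 0 in both libraries (0 to 3 over 7 CDR3s in mIUT, 0 to 1 over 5 in pIUT). Among the beta chains with a D match the median was 2 in both, over 7 CDR3s each. Alpha chains had a median of 5 in pIUT (0 to 9 over 7 CDR3s, of which 3 differ only in the length of a run of C) and 1.5 in mIUT (0 and 3 in 2 CDR3s), and the 6 gamma chain CDR3s of mIUT had a median of 10 (9 to 11).

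Clonotype 19 of pIUT joined TRAV11D (chr14:53061814-53062369) with TRAJ18, the pair used by invariant NKT cells, and was singled out after its values were seen. It held 63 reads, 1.68% of the clone count, and had 1 base between V and J.
pIUT 19, TRAV11D with TRAJ18, 63 reads: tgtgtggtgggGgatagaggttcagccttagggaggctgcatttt

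The sizes of the clonotypes fell into 2 ranges. In mIUT 31 clonotypes had 124 reads or more and the other 18 had 21 or fewer, and in pIUT 25 had 27 or more and the other 7 had 5 or fewer. Of the small clonotypes, 11 of 18 in mIUT and 6 of 7 in pIUT had a CDR3 equal to, or 1 base away from, that of a larger one of the same chain. A further 6 of the small clonotypes of mIUT were gamma chains of TRGJ2 whose CDR3s share a run of G of varying length. The large clonotypes held 98.9% and 99.5% of the clone counts.

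**Figure D4:**
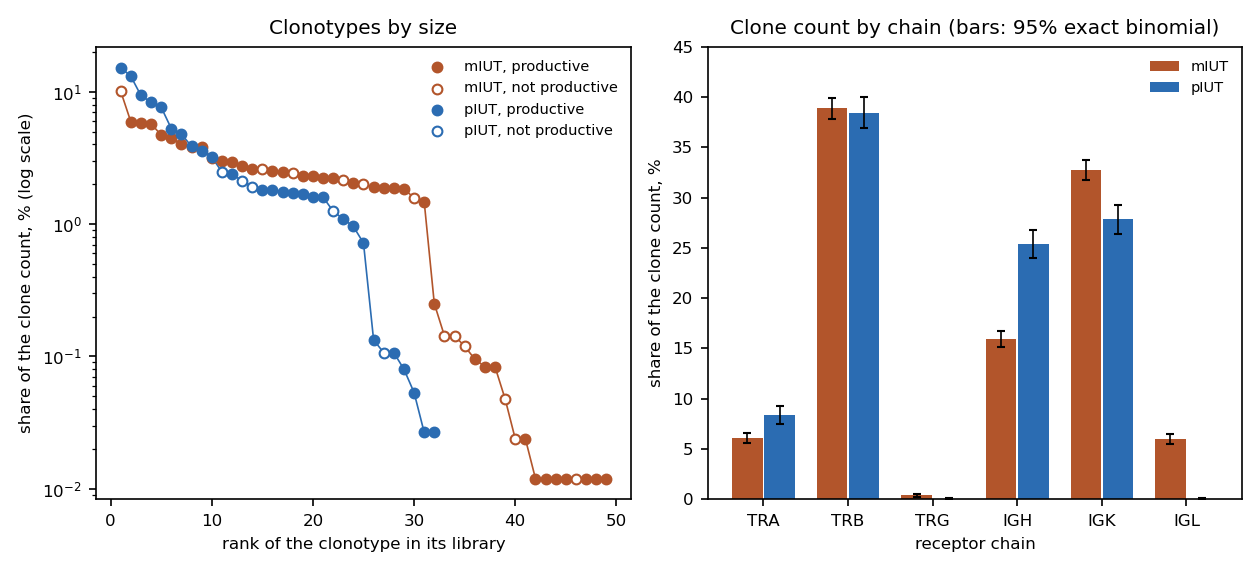
Left, share of the clone count (%, log scale) of each clonotype by its rank, for the mIUT and pIUT maternal libraries, with open circles for clonotypes without a productive CDR3. Right, share of the clone count (%) by receptor chain, with 95% exact binomial intervals for counting error only. Sizes drop after clonotype 31 in mIUT and 25 in pIUT, beta chains take 38.9% and 38.5%, and gamma and lambda chains are found in mIUT only.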

How the data were processed

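RNA of sorted cell pools was sequenced, and the authors deposited estimated counts per gene and tables of receptor clonotypes for 8 samples. The label of the count table names salmon, while the study's methods name featureCounts, and the submitters' processing notes name bcl2fastq, StringTie and GRCm39. The estimated counts deposited by the authors are not normalized, and 8.64% of the values were not whole, so they were rounded. The authors ran MiXCR (version not given in the sources used here) on the same reads and deposited, for each clonotype, the clone count in reads and its fraction of all receptor reads.

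Of 52784 genes, 25066 had a count and 24827 of these (99.05%) were matched to GENCODE annotation of GRCm39, of a later release than the authors used. Counts were scaled by TMM over all 8 libraries and fitted in edgeR 4.0.16 under R 4.3.3 with the dispersion set to 0.4, from which no p-value was taken. A gene was compared where it had more than 3 counts in at least 1 of the 2 libraries, and called at 4-fold. Genes named were the 15 furthest in each direction with at least 50 counts in both libraries, the 15 with the highest CPM in one library among those at 3 counts or fewer in the other, the 15 with the highest CPM in each library, and members of 45 gene lists (485 genes, 7 without an identifier). The comparison, its members and the lists were chosen with earlier results of these data known. A few of these genes are not reported here. Clonotypes were compared by V, J and CDR3 nucleotides. Intervals and limits of 3 counts cover counting error only. Depth was 39477126 to 44558283 counts in the 2 libraries. Alternatives were other scalings (DESeq2 1.42.0 size factors, TMM of the 2 libraries, library size), other folds, detection limits and prior counts, genes with 10 counts in both, and other rules for clonotypes. The scripts were tested on simulated data. Python 3.11.15 with pandas 2.3.3, scipy 1.17.1, numpy 2.4.6 and matplotlib 3.10.9 was used.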

Additional observations from a re-analysis of the deposited data

Results flagged for a closer look

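The medians of 3 gene lists passed 4-fold in opposite directions, lower in pIUT than in mIUT in maternal cells and higher in recipient cells. With 1 library of each kind, the difference between maternal and recipient cells was not tested. Immunoglobulin constant regions had a median log2 fold of -3.08 in maternal cells, with 3 of 6 genes lower and none higher, and of 2.09 in recipient cells, with 4 of 7 higher and none lower. Cytotoxic granule genes had -2.08 in maternal cells, with 4 of 7 lower and none higher, and 2.78 in recipient cells, with 7 of 10 higher and 1 lower. This maternal median stayed short of 4-fold under the other scalings (-1.93 with DESeq2 size factors, -1.90 with TMM of the 2 libraries, -1.52 with library size) and over genes that reached 10 counts in each library (-1.88), where that of the immunoglobulin constant regions was -1.80. Epithelial genes had -4.31 in maternal cells, with 4 of 5 lower and 1 higher, and 2.51 in recipient cells, with 5 of 6 higher and none lower.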

How the results depend on the processing

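At a fold of 2 the calls were 6669 higher and 4463 lower. Over genes that reached 10 counts in each library they were 1052 higher and 1287 lower, since this setting removes the genes near 0 in 1 library, which made up most calls. In that setting 11 of 44 list medians changed sign, among them erythroid transcription factors (-0.076), tissue macrophages (-2.27), mast cells, basophils and eosinophils (-4.28) and imprinted fetal growth genes (-2.67), which had passed 4-fold. The other medians that changed sign were those of B-cell precursors (0.42), plasma cells (-1.73), regulatory T cells and checkpoints (0.053), NK cells (-1.48), stem and progenitor cells (-2.53), chemokines (-0.29) and endothelial cells (-1.06). Scaling moved all log2 folds by 0.15 (DESeq2), 0.18 (TMM of the 2 libraries) and 0.56 (library size), and 40, 39 and 34 of 45 list medians kept their sign and side of 4-fold. Those that changed sign under all of these were regulatory T cells and checkpoints, immediate-early genes and genes expressed in most cells, and under library size also plasmacytoid dendritic cells. Of 101 list members called lower, 5 fell short of the call with DESeq2 size factors (Gzmb, Ifng, Selplg, H2-Ab1 and Csf1r), 5 with TMM of the 2 libraries and 22 with library size, while 3, 4 and 12 more members were called higher. After the data were seen, 2 settings were added. Library sizes without globins and late neutrophil genes moved all log2 folds by 0.53, and 34 of 45 lists kept sign and side. Leaving out the genes missing in mIUT alone removed no list member, so it says nothing about the lists. Among productive clonotypes the T-cell receptor share was 52.5% in mIUT and 49.3% in pIUT. No paired analysis was possible because each group has 1 library, and for the same reason no replicate could be left out. Genes at 0 counts set only a limit at this depth, and the variation between pools is unknown.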
